A study of Mus musculus with 8 samples.

Results

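Sec23a, Gtf2h4 and Wdr78 are 3 of the 8251 genes that a probe set with a single gene symbol named on these arrays, and they were chosen because earlier results of the same data showed them lower on the Vbeta5 arrays. Their 4 probe sets are every one that the platform annotation gives to these symbols alone: 104709_at and 93711_at for Sec23a, 102039_at for Gtf2h4 and 101470_at for Wdr78. The RNA came from mouse double positive thymocytes, the immature T cells of the thymus that express CD4 and CD8 together, and was hybridised to 8 arrays. The 4 groups of 2 arrays were labelled Vbeta5, Valpha2, overnight control and control, and each group has 1 array under the name Data 1 and 1 under Data 2. By its title the series concerns antibodies that engage the T cell receptor; Vbeta5 and Valpha2 are names of a beta chain and an alpha chain variable segment. The sources used here do not give genotype, strain, age, antibody clone, dose or time of culture. Nor do they say whether the arrays of a group came from separate animals or cultures, so a p-value here covers the spread between arrays, which may be no more than technical.

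The products of the 3 genes work in unrelated machines. Sec23a encodes a subunit of the inner layer of the COPII coat, which forms on the endoplasmic reticulum around vesicles that carry newly made proteins to the Golgi; Sec23 binds Sec24, which takes up cargo, and stimulates the GTPase Sar1 that starts the coat. Gtf2h4 encodes the p52 subunit of TFIIH, a complex that opens promoter DNA for RNA polymerase II and opens damaged DNA for nucleotide excision repair, and in which p52 holds and stimulates the XPB helicase. Wdr78 encodes a WD repeat protein of the axonemal dyneins, the motors of beating cilia, which T cells are not known to carry.

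Promoters of Sec23a and Gtf2h4 were in the RefSeq promoter table (2 of the 3 genes matched; Wdr78 did not), and are shown because these genes were low on the same arrays. Each runs 5′ to 3′ on the gene's strand, 250 bases before and 50 bases from the start of the gene, in build GRCm38.p6. Capitals mark matches on either strand to any of 5 short motifs: TATAAA, the E box CAGCTG, the GC box GGGCGG, the Ets core CGGAAG and the Runx core TGTGGT.
Sec23a, chr12:59011968-59012267, minus strand: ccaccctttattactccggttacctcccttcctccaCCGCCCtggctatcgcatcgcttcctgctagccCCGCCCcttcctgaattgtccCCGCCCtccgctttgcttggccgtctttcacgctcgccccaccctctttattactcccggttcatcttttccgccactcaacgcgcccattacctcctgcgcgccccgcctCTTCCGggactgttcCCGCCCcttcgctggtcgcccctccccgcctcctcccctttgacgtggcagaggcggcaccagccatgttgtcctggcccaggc
Gtf2h4, chr17:35673694-35673993, minus strand: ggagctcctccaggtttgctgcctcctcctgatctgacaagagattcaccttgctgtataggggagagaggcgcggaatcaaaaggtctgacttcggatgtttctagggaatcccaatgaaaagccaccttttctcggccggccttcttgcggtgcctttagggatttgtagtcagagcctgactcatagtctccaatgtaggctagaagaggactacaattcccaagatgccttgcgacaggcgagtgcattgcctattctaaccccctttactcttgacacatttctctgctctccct
The Sec23a promoter holds 4 GC boxes, with leftmost bases at -214, -181, -160 and -34 where the first base of the gene is 0, and 1 Ets core at -49, none overlapping another. The Gtf2h4 promoter holds 0 matches to the 5 motifs, which says only that these letters are not in this window. Of the 32851 promoters of the same length in the table, 35.7% hold GGGCGG, 16.9% CGGAAG, 16.8% TGTGGT, 16.3% CAGCTG and 13.6% TATAAA. The G and C content was 64.7% for Sec23a and 50.7% for Gtf2h4, against a median of 52.7% over all promoters, and CG pairs numbered 24 and 8. These are matches of letters and say nothing about which factors bind.

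Signals are the authors' normalized intensities on a linear scale, and differences are of log2(signal + 17), so that a log2 difference of a dim probe set is understated. Trimmed means of the arrays were 250.14 to 250.16 and medians 73.65 to 110.25. The control probe sets at the 3′ and the 5′ end of Gapdh gave a measure of RNA integrity, and their log2 ratio was 0.48 on Vbeta5 array 1, 1.72 on Valpha2 array 1 and 0.95 on overnight control array 1, against -0.28 to -0.09 on the other 5 arrays. Of the 9 measured double positive thymocyte markers, the dimmest on any array was the recombinase gene Rag2, at 21.2 and 133 with Vbeta5 against 516.3 to 1184.8 on the other 6 arrays, and Ptcra had 56.3 and 59 with Vbeta5 against 79.4 to 181.8. In 7 of the 9 (Cd4, Cd8a, Cd8b1, Rag1, Rag2, Ptcra and Dntt) both Vbeta5 arrays lay below the other 6 arrays. Over all tested probe sets the share with this pattern was not counted. It can be no more than the 15.2% with both Vbeta5 arrays under both overnight control arrays. The genes of the CD3 chains that signal for the T cell receptor, Cd3e and Cd3d, overlapped the other arrays, with Cd3e at 2670.9 and 4669.3 with Vbeta5 against 2445.8 to 5699.8 on the other arrays, and Cd3d at 3434.3 and 3891.8 against 2812.3 to 4661.8. The summed signal of all 9 was 17248 to 29862 on the Vbeta5 arrays, 47551 to 60726 on Valpha2, 57561 to 59237 on overnight control and 42576 to 48041 on control arrays. Summed signals of the 3 measured B cell markers were 341 to 375 with Vbeta5, 565 to 651 with Valpha2, 646 to 650 in the overnight control and 221 to 391 in the control, those of 4 macrophage markers 96.1 to 322 and of 4 granulocyte markers 137 to 450 over all arrays, and those of 2 erythroid, 3 thymic epithelium and 2 ciliated cell markers were no more than 374, 187 and 195. In none of these non-T cell lists did the summed signals of the Vbeta5 arrays lie outside the range of the other 6 arrays. Of their 18 single markers the B cell gene Cd79b did, at 106.3 and 111.6 with Vbeta5 against 148.9 to 427.9 on the other arrays, and so was low on the same arrays as Sec23a, Gtf2h4 and Wdr78. In bulk RNA fewer cells that hold a transcript and less of it per cell cannot be told apart, and the part that the low signals of these 7 double positive markers and of Cd79b have in the results was not tested.

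All 4 probe sets were lower on both Vbeta5 arrays than on every other array. These values chose the genes and are given as a description, with no test. In the plot of signal by array, the Vbeta5 pair stands below the other 6 arrays in each panel.

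**Figure D1:**
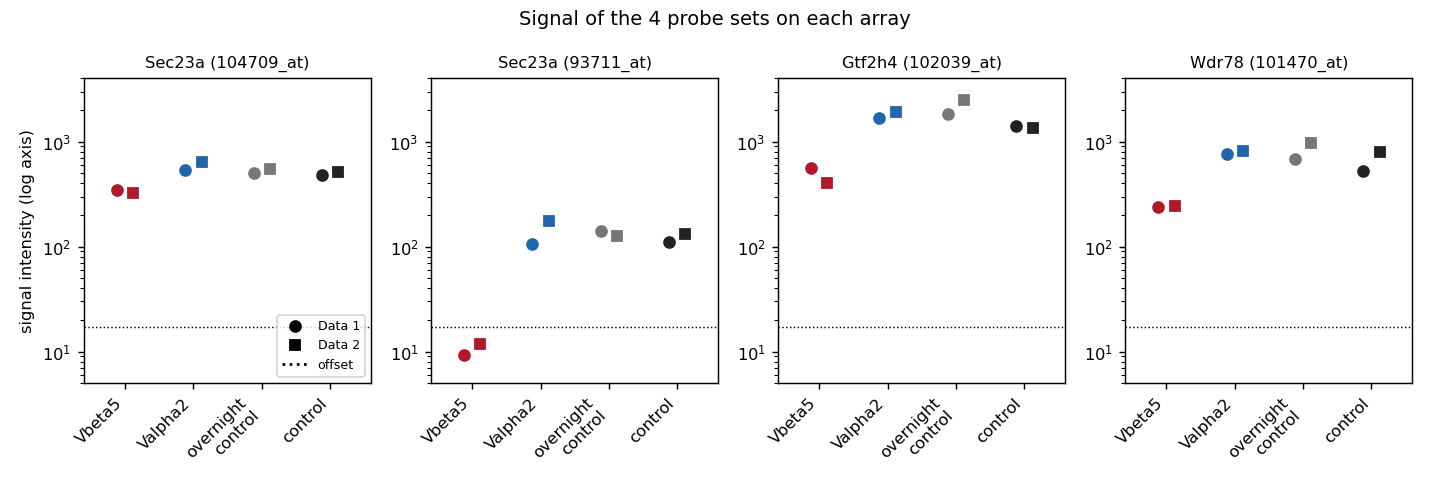
Signal intensity (log axis) of the 2 Sec23a probe sets, Gtf2h4 and Wdr78 on each of the 8 arrays; circles are Data 1 arrays and squares Data 2 arrays, and the dotted line is the offset of 17. The Vbeta5 arrays are the lowest in each panel, and for Sec23a 93711_at they lie under the offset.

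The brighter Sec23a probe set, 104709_at, had signals of 347.8 and 327.5 with Vbeta5, 533.7 and 640.2 with Valpha2, 503.6 and 544.4 in the overnight control, and 482.1 and 510.4 in the control. The Vbeta5 arrays were low, and the other 3 groups lay close together between 482.1 and 640.2. On the log2 scale Vbeta5 differed by -0.76 from Valpha2, by -0.61 from the overnight control and by -0.53 from the control. The mean signal with Vbeta5 was 338 ± 14.4 (SD, n = 2) against 524 ± 28.9 in the overnight control, a mean lower by 35.6%.

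The dimmer Sec23a probe set, 93711_at, had signals of 9.2 and 11.9 with Vbeta5, 105.8 and 173.8 with Valpha2, 140.4 and 125.5 in the overnight control, and 110.2 and 132.5 in the control. It was near the bottom of the Vbeta5 arrays, where 9.19% and 15.2% of all probe sets had a lower signal, and near the middle of the other 6, where 53.7% to 64.8% did. The mean signal was 10.6 ± 1.91 with Vbeta5 and 133 ± 10.5 in the overnight control (SD, n = 2 each). Log2 differences of Vbeta5 were -2.48 from Valpha2, -2.44 from the overnight control and -2.33 from the control. Both Vbeta5 signals were under the offset, so the size depends on it: with an offset of 8.5 the differences were -2.93, -2.89 and -2.77. Detection calls were not used here, and whether these 2 signals are above background was not tested.

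The 2 Sec23a probe sets therefore had the same direction in each of the 3 Vbeta5 comparisons, but not the same size. Against the overnight control the dimmer probe set differed by -2.44 and the brighter by -0.61 on the log2 scale, and the first of these rests on Vbeta5 signals under the offset. Which of them reports more of the Sec23a transcripts was not tested, and 1 drop for the gene cannot be given from them.

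Gtf2h4 had signals of 562 and 405.5 with Vbeta5, 1682.4 and 1902.4 with Valpha2, 1836.9 and 2517.6 in the overnight control, and 1422.5 and 1348.4 in the control. The Vbeta5 arrays were the lowest, the control arrays came next, and the Valpha2 and overnight control arrays were the highest and overlapped each other. Mean signals were 484 ± 111 with Vbeta5, 1792 ± 156 with Valpha2, 2177 ± 481 in the overnight control and 1385 ± 52.4 in the control (SD, n = 2 each). Vbeta5 differed by -1.87 from Valpha2, -2.13 from the overnight control and -1.50 from the control on the log2 scale, which are 3.65-fold, 4.38-fold and 2.83-fold lower values of signal + 17. The signal was well above the offset on all 8 arrays, with 80.3% to 97.6% of probe sets below it.

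Wdr78 had signals of 240.8 and 246 with Vbeta5, 763.8 and 810.5 with Valpha2, 688.7 and 975 in the overnight control, and 530.6 and 790.1 in the control. The Vbeta5 arrays were alike and low, while the Valpha2, overnight control and control arrays overlapped. The mean signal was 243 ± 3.68 with Vbeta5 against 787 ± 33.0 with Valpha2, 832 ± 202 in the overnight control and 660 ± 183 in the control (SD, n = 2 each). On the log2 scale Vbeta5 differed by -1.63, -1.68 and -1.35 from Valpha2, the overnight control and the control, which are 3.09-fold, 3.21-fold and 2.55-fold lower values of signal + 17.

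All 12 of these differences were below 0 for both data numbers, which follows from arrays that do not overlap. Against the overnight control, Gtf2h4 differed by -1.68 between the Data 1 arrays and -2.58 between the Data 2 arrays, and Wdr78 by -1.45 and -1.91. Sec23a differed by -0.51 and -0.70 in 104709_at, and by -2.59 and -2.30 in 93711_at. The Data 2 arrays, which had the lower 3′ to 5′ ratios, gave the larger difference in 3 of these 4 probe sets and the smaller in Sec23a 93711_at. The 3 comparisons share the Vbeta5 arrays, so they are not independent of each other.

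**Figure D2:**
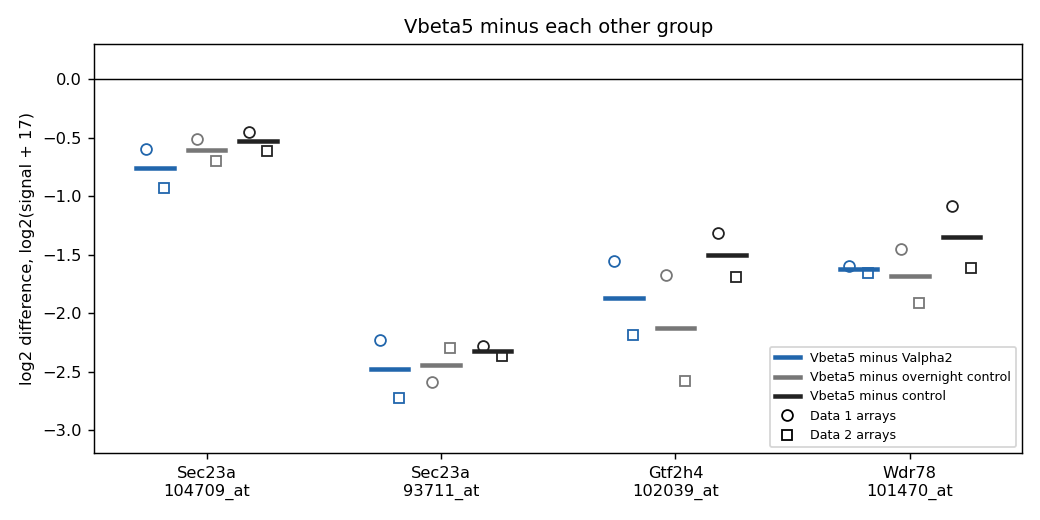
Log2 differences of Vbeta5 from Valpha2, the overnight control and the control for each probe set, on the log2(signal + 17) scale; bars are differences of group means, circles the Data 1 arrays and squares the Data 2 arrays. All values lie below 0, from -0.45 for Sec23a 104709_at to -2.72 for Sec23a 93711_at.

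Over the 8282 probe sets tested with limma (Benjamini-Hochberg adjusted p under 0.05), 0.266% were called lower in Vbeta5 against the overnight control, 0.181% against Valpha2 and 1.01% against the control. Of the 4 probe sets, 3 were past the threshold in each comparison and Sec23a 104709_at was not. Nothing is read from this count, since the genes were picked by it. Both Vbeta5 arrays lay under both arrays of the other group in 4 of 4 probe sets, a pattern held by 15.2% of tested probe sets against the overnight control, 18.5% against Valpha2 and 19% against the control.

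The comparisons among the other 3 groups leave out the Vbeta5 arrays but are not independent of the choice of genes. The overnight control and Valpha2 arrays were the higher side of that choice, which favours genes that are high on them, so the p-values here describe chosen values and support nothing. No probe set of the 3 genes passed in any of these comparisons. For Valpha2 against the overnight control the log2 differences were 0.15 ± 0.23 (SE) and 0.03 ± 0.41 for the Sec23a probe sets 104709_at and 93711_at, -0.26 ± 0.24 for Gtf2h4 and -0.06 ± 0.27 for Wdr78, each with a limma adjusted p of 1. The arrays of the 2 groups overlapped in all 4 probe sets. Intervals at 95% ran from -0.36 to 0.67, -0.88 to 0.94, -0.81 to 0.28 and -0.66 to 0.54, in the same order. Over all probe sets 0% were called in either direction, with 132 at an unadjusted p under 0.05.

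For Valpha2 against the control the log2 differences were 0.23 and 0.15 for the Sec23a probe sets, 0.37 for Gtf2h4 and 0.27 for Wdr78 (limma adjusted p = 0.904, 0.975, 0.830 and 0.902), where 0.398% of probe sets were called in either direction. Both Valpha2 arrays lay above both control arrays for Sec23a 104709_at and Gtf2h4, 2 of the 4 probe sets, as in 25.8% of all tested.

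Gtf2h4 had the largest difference of the 4 probe sets between the overnight control and the control, 0.63 ± 0.24 (SE) on the log2 scale, with a 95% interval of 0.09 to 1.17 and a limma adjusted p of 0.486. Its 2 overnight control arrays, at 1836.9 and 2517.6, lay above the 2 control arrays, at 1422.5 and 1348.4, as they did in 21.6% of tested probe sets. The result did not pass, its overnight control arrays had taken part in the choice of the gene, and 0.217% of probe sets were called in either direction. Wdr78 differed by 0.33 ± 0.27 (limma adjusted p = 0.718), Sec23a 104709_at by 0.08 ± 0.23 and Sec23a 93711_at by 0.12 ± 0.41 (limma adjusted p = 0.936 and 0.945), each with overlapping arrays. Shifting the arrays to a common median lowers every log2 difference between overnight control and control by 0.23, after which Gtf2h4 differed by 0.40, Wdr78 by 0.11 and the Sec23a probe sets by -0.15 and -0.11. The same shift changes differences of Vbeta5 from the control by -0.20 and those of Valpha2 from the control by -0.14.

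**Figure D3:**
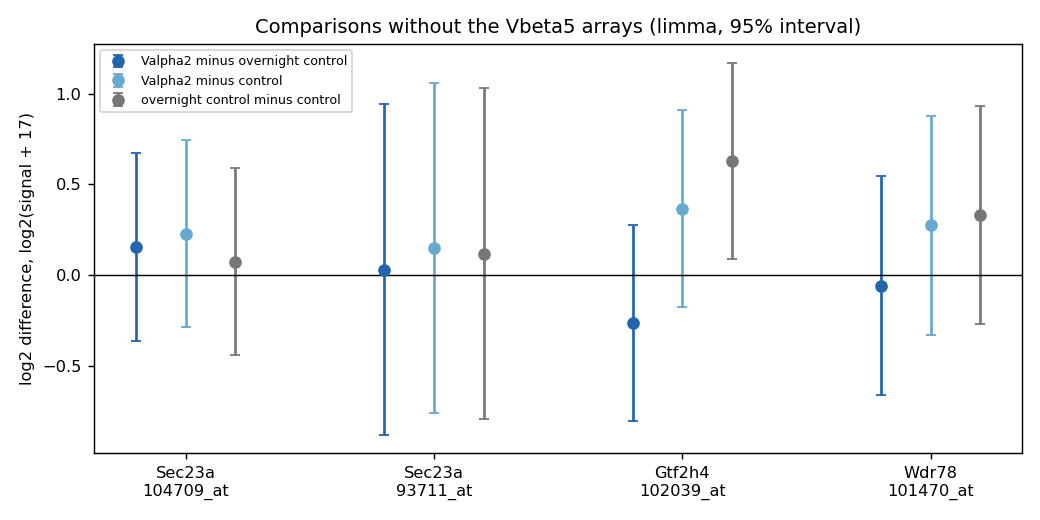
Log2 differences, on the log2(signal + 17) scale, of Valpha2 from the overnight control, Valpha2 from the control and the overnight control from the control for each probe set; points are differences of means and bars the 95% interval of the limma fit. Gtf2h4 in the overnight control against the control has an interval above 0, from 0.09 to 1.17, and the other 11 intervals include 0.

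The group means of all 4 probe sets were therefore lowest with Vbeta5, which follows from the choice of genes, and next in the control. Above these groups, Valpha2 was highest for both Sec23a probe sets and the overnight control for Gtf2h4 and Wdr78. The order above Vbeta5 depends on the scaling. At a common median the overnight control lay below the control in both Sec23a probe sets (-0.15 and -0.11). For Wdr78, Valpha2 then lay above the overnight control. None of the neighbours in the order above Vbeta5 differed past the threshold.

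Other genes of the same machines were examined with 7 lists, which hold 99 tested genes besides Sec23a, Gtf2h4 and Wdr78. In Vbeta5 against the overnight control 0 of the 99 passed in limma, where 0.616% of all probe sets were called in either direction. At an unadjusted limma p under 0.05 were 7 of the 99, against 698 of the 8282 probe sets tested. The plot of the lists shows the 3 genes below their lists' medians, which follows from how they were picked.

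**Figure D4:**
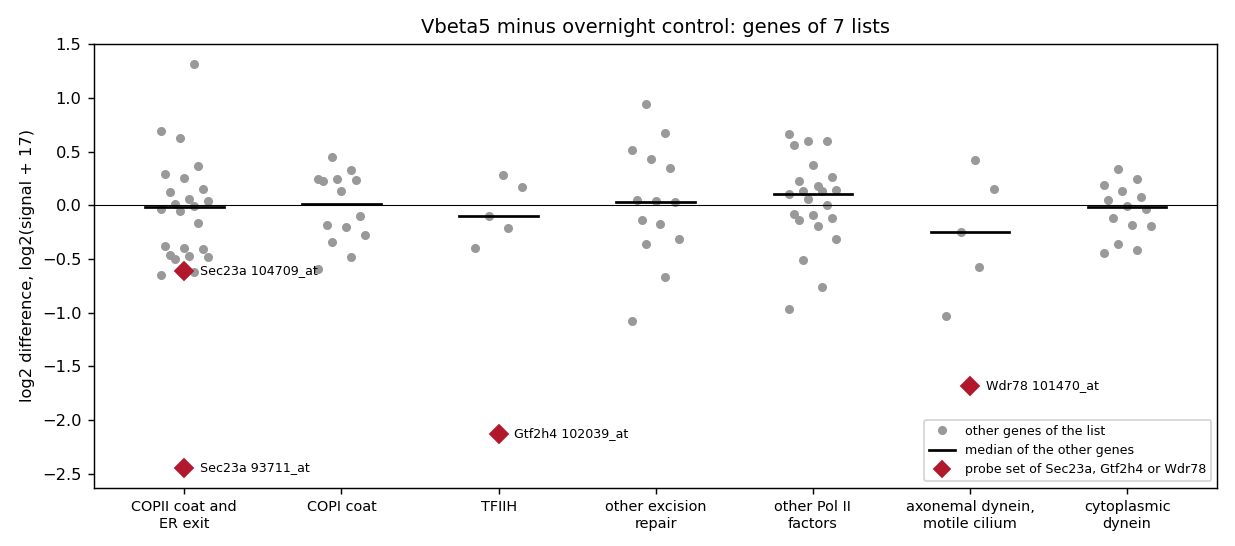
Log2 differences of Vbeta5 from the overnight control, on the log2(signal + 17) scale, for the 99 tested genes of 7 lists (grey points, 1 probe set a gene), with their medians (black bars) and the 4 probe sets of Sec23a, Gtf2h4 and Wdr78 (diamonds). List medians lie between -0.25 and 0.11, while the diamonds lie between -2.44 and -0.61.

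The list of the COPII coat and exit from the endoplasmic reticulum held 24 other tested genes. With Vbeta5 against the overnight control 0 rose and 0 fell past the threshold. The median log2 difference was -0.02, against -0.01 over all genes. At an unadjusted limma p under 0.05, 3 of the 24 were higher and 0 lower. Over all 8282 probe sets 698 were, in either direction. Against Valpha2 the median was -0.11, with 0 called, and that over all genes was 0.01. The paralog Sec23b, which can take the place of Sec23a in the coat, had signals of 605.9 and 618.4 with Vbeta5, 502.9 and 425.2 with Valpha2, 337.3 and 451.3 in the overnight control, and 483.1 and 493.9 in the control in its brighter probe set, 98944_at. Both Vbeta5 arrays were thus the highest for Sec23b, a pattern whose share over all probe sets was not counted. The low Vbeta5 arrays of Sec23a follow from how it was picked. A link between the paralogs was not tested. The differences of Sec23b did not pass, at 0.63 ± 0.25 (SE) against the overnight control and 0.39 ± 0.25 against Valpha2 (limma adjusted p = 0.477 and 0.754). Its other probe set, 161939_f_at, was too dim to be tested, with signals of 11.5 to 60.1.

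No direct partner of Sec23a passed the test. Sec24c, the cargo adaptor of the coat, had mean signals of 949 with Vbeta5 and 974 in the overnight control, Sar1a, the GTPase that starts the coat, 1159 and 1127, and Sec31a, of the outer layer, 480 and 491. Sec13, also of the outer layer, averaged 822 with Vbeta5 and 671 in the overnight control (log2 difference 0.29 ± 0.22 SE, limma adjusted p = 0.865). Sar1b differed by 0.06 and 0.32 in its 2 probe sets, and the Sec24b probe set was left out as dim. Of the COPI coat, which carries material back from the Golgi, 14 genes were tested and 0 passed, with a median of 0.01 against the overnight control.

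Of the 9 other TFIIH subunits listed, 5 had a probe set and were tested, and none of the 5 passed. All 5 lay between -0.40 and 0.29 in Vbeta5 against the overnight control, with 0 past the threshold, 0 at an unadjusted p under 0.05 and a median of -0.10. Ercc3, which encodes the XPB helicase that p52 holds, had a mean signal of 210 with Vbeta5, 211 with Valpha2, 280 in the overnight control and 249 in the control. Its log2 differences were -0.40 ± 0.32 (SE) from the overnight control and -0.02 ± 0.32 from Valpha2 (limma adjusted p = 0.875 and 0.994). Ercc2, the XPD helicase, differed from the overnight control by 0.29 in its brighter probe set and 0.00 in the other, and Gtf2h1, a core subunit, by 0.17. The kinase Cdk7 differed by -0.10 and its assembly factor Mnat1 by -0.22 and -0.04 in 2 probe sets.

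Outside TFIIH, 23 tested general factors and subunits of RNA polymerase II had a median of 0.11 and 14 other excision repair genes one of 0.03 in Vbeta5 against the overnight control, with 0 called in each. One repair gene, Lig1, which encodes a DNA ligase that also joins fragments in replication, was called lower than the control with Vbeta5 and Valpha2. In these comparisons 1.64% and 0.398% of all probe sets were called in either direction. Its signals were 180.1 and 136.3 with Vbeta5, 134.2 and 108.4 with Valpha2, 205.4 and 111.9 in the overnight control, and 592.1 and 485.3 in the control. The control arrays stood apart and the other 3 groups overlapped, with log2 differences from the control of -1.67 ± 0.35 (SE) with Vbeta5, -2.01 ± 0.35 with Valpha2 and -1.71 ± 0.35 in the overnight control (limma adjusted p = 0.0415, 0.0421 and 0.0893). Both calls ended when any one of the Valpha2, Vbeta5 or control arrays was left out, with a floor of 17 in place of the offset, without the filter on dim probe sets and without the variance trend, and the Valpha2 call also ended under quantile normalization. A second, dim Lig1 probe set was not tested. Pcna and Pold1 of the same list also had their highest mean in the control, and were not called. They differed from it by -1.445 and -1.04 with Vbeta5 (limma adjusted p = 0.0617 and 0.193). With Valpha2 these were -1.50 and -1.20 (limma adjusted p = 0.113 and 0.231). At an unadjusted limma p under 0.05, 4 of the 14 were lower and 0 higher in each comparison. Over all 8282 probe sets 920 and 612 were, in either direction.

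For the axonemal list, 9 of 37 genes other than Wdr78 had a probe set, and 5 of the 9 were bright enough to test, against 24 of 25 for the COPII list. Against the overnight control 1 of the 5 had an unadjusted limma p under 0.05, as had 698 of the 8282 probe sets tested. None of the 5 passed (0 called), and their median was -0.25. They were the dynein heavy chain Dnah8 at -0.25, the light chain Dnal4 at -1.03 (limma adjusted p = 0.579), the ciliary transcription factors Foxj1 at 0.42 and Rfx2 at -0.58, and the radial spoke gene Rsph1 at 0.15. The ciliated cell markers Foxj1 and Tekt1 had signals of 27.2 to 164.5 and 7.2 to 30.4 over the 8 arrays, with summed signals of 114 to 167 with Vbeta5 and 46.9 to 175 in the overnight control, so the Vbeta5 arrays lay within the range of the overnight control. The 14 tested genes of cytoplasmic dynein, the motor that carries cargo along microtubules in all cells, had a median of -0.02 with 0 called.

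Genes next to the 3 on the chromosome, taken from the RefSeq table, gave few values. Of the 12 nearest protein-coding neighbours, 2 on each side of a gene, 4 had a probe set and 2 were tested. Ier3, on the same side of Gtf2h4 as Ddr1, differed by 0.04 in Vbeta5 against the overnight control, and Slc35d1, near Wdr78, by -0.26 (limma adjusted p = 1 and 0.947). Sstr1, near Sec23a, and Ddr1 were too dim, with group means of 7.05 to 10.4 and 10.6 to 24.1.

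The genes with a pattern most like each of the 3 were found by Pearson's r of log2(signal + 17) over the 8 arrays with about 7366 named probe sets; the values share the arrays and the scaling, follow mainly the Vbeta5 pair, and are a description. For Sec23a 104709_at they were Serac1 (r = 0.990), the adhesion protein gene Emb (0.972), the glycosyltransferase Galnt4 (0.962), the deadenylase subunit Pan2 (0.948) and Wdr78 (0.944). Serac1 averaged 25.6 with Vbeta5, 90.5 with Valpha2, 79.95 in the overnight control and 67.2 in the control.

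For Gtf2h4 the most alike were Nsg2 (r = 0.990), the survival gene Bcl2l1 (0.981), Ilvbl (0.976), Cdc42se2 (0.975) and the corepressor Cbfa2t3 (0.970), and for Wdr78 they were Cbfa2t3 (0.984), Nsg2 (0.977), Emb (0.977), the palmitoyltransferase Zdhhc14 (0.974) and Tollip (0.970). Nsg2 averaged 660 with Vbeta5, 1679 with Valpha2, 1820 in the overnight control and 1405 in the control, and so had the group order of Gtf2h4. For the dimmer Sec23a probe set, added after its values were seen, they were Ccdc28b (0.964), Serac1 (0.963), Ly6d (0.960), Wdr78 (0.952) and Bcl2l1 (0.948). Wdr78 ranked 5 and 4 for the 2 Sec23a probe sets, and 7 for Gtf2h4. Gtf2h4 ranked 10 for each Sec23a probe set and 10 for Wdr78. The Sec23a probe sets 104709_at and 93711_at ranked 23 and 20 for Gtf2h4, and 22 and 17 for Wdr78. Sec23a, Gtf2h4 and Wdr78 were all chosen as low on the Vbeta5 arrays, which favours high ranks among them. Nothing is read from these ranks.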

How the data were processed

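The authors deposited 1 table of intensity for 12488 probe sets on 8 arrays, which per the labels are normalized; the sources used here do not give the software or the method. The 66 control probe sets and the dimmest 33.3% of the rest by mean were left out, and 8282 were tested, all 4 of Sec23a, Gtf2h4 and Wdr78 among them. The offset of 17 was set at the 20th percentile of positive signals; 12.24% to 24.72% of signals on an array lay under it. Names came from the platform annotation, updated by gene identifier with RefSeq (GRCm38.p6): 10833 probe sets had 1 symbol (10817 found in RefSeq), 396 several and 1193 none. Promoters are from RefSeq.

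Comparisons were fitted over all 8 arrays by limma (version 3.58.1, R 4.3.3) with a mean for each group and a variance trend (residual degrees of freedom 4, prior 6.438), and adjusted by Benjamini-Hochberg over all probe sets. With 2 arrays on each side the smallest two-sided permutation p is 0.333, and no such test was made. The genes, lists and motifs were chosen with earlier results of these data known. Named genes were Sec23a, Gtf2h4 and Wdr78, list genes past the threshold, their close partners and the 5 of highest likeness; other list genes, neighbours and markers were named later. The brightest probe set stands for a list gene. The number of arrays limits the precision. The fit was tested on simulated data. Alternatives were 2 normalizations, 2 treatments of low signals, 2 filters, no trend, a block for the data number, 4 arrays only and leaving out arrays.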

Additional observations from a re-analysis of the deposited data

How the results depend on the processing

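In the 3 comparisons without Vbeta5 arrays, no alternative brought a probe set of Sec23a, Gtf2h4 or Wdr78 past the threshold; the lowest adjusted p was 0.253, for Gtf2h4 between overnight control and control. The overnight control and Valpha2 arrays took part in the choice of the genes, so nothing is read from these p-values. The signs of the 12 Vbeta5 differences follow from how the genes were chosen and are not read as stability. The filters, the variance trend, the block and the fits on 4 arrays cannot change a difference of means. A common median shifts every difference of a comparison by the same amount. That amount is -0.20 for Vbeta5 against the control and -0.06 against Valpha2. It is 0.09 for Valpha2 against the overnight control and -0.23 for the overnight control against the control. A floor adds nothing to signals above 17, such as all those of Wdr78. Beyond this and 1 further point, the cause of the values that follow was not tested. The further point is that the offset and the floor act on Sec23a 93711_at because its Vbeta5 signals are under 17. That probe set differed by -2.89 from the overnight control, -2.93 from Valpha2 and -2.77 from the control with an offset of 8.5, by -2.96, -2.996 and -2.83 with a floor, and by -2.52 from the control at a common median. At a common median Sec23a 104709_at differed by -0.73 (Vbeta5 against control) and by -0.15 (overnight control against control), and Wdr78 by -1.69 (Vbeta5 against Valpha2) and 0.0313 (Valpha2 against overnight control); Wdr78 with a floor differed by -1.69 (Vbeta5 against Valpha2). Sec23a 93711_at in the overnight control against the control turned to -0.0756 under quantile normalization and -0.11 at a common median.

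A setting chosen after seeing the data left out the Vbeta5, Valpha2 and overnight control arrays numbered 1. Differences among these groups are then those of the Data 2 arrays alone and add nothing to them. Vbeta5 differed from the overnight control by -0.70 (Sec23a 104709_at), -2.30 (93711_at), -2.58 (Gtf2h4) and -1.915 (Wdr78). From Valpha2 it differed by -0.93, -2.72, -2.18 and -1.65 in the same order. Leaving out 1 array at a time turned the sign of Sec23a 93711_at in Valpha2 against the overnight control (-0.29 to 0.35) and against the control (-0.17 to 0.47), and of Wdr78 in the same comparisons (-0.30 to 0.19 and -0.00589 to 0.55).

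The counts over all probe sets were 51 for Vbeta5 against the overnight control, 23 against Valpha2 and 136 against the control, 0 for Valpha2 against the overnight control and 33 against the control, and 18 between overnight control and control. In that order of comparisons, leaving out the 1 without calls, the replicate block gave 125, 90, 242, 90 and 107, no variance trend 0, 0, 22, 0 and 0, only the 4 arrays compared 29, 0, 215, 56 and 35, and the setting without the 3 arrays numbered 1 gave 169, 52, 329, 65 and 84. That last setting leaves 1 array each of Vbeta5, Valpha2 and the overnight control. The spread between arrays in its fit comes from the 2 control arrays alone. Its counts therefore cannot show whether more probe sets differ without the arrays numbered 1, and nothing is read from them. A common median gave 29 for Vbeta5 against the overnight control, 0 against Valpha2 and 11 for Valpha2 against the control. Quantile normalization gave 19 for Valpha2 and 10 for the overnight control, both against the control, and no filter gave 10 for Valpha2. For Vbeta5 against the control the split of 52 higher and 84 lower became 18 and 80 at a common median, and between overnight control and control 2 and 16 became 0 and 10 under quantile normalization. Without 1 array the counts ran from 0 to 54, 0 to 31, 0 to 185, 0 to 46 and 0 to 121 in the same order, and from 0 to 1 for Valpha2 against the overnight control. What the data numbers mark is not stated; deviations of same-numbered arrays correlated at 0.104 to 0.347 across probe sets, and with 2 numbers the pairing was not taken as given. Each group holds 1 array of each number, so the block leaves every difference of means as it is by construction; with it, too, no probe set of Sec23a, Gtf2h4 or Wdr78 passed in the comparisons without Vbeta5.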
